A study of Mus musculus with 11 samples.

Results

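Glucocorticoids, corticosterone in the mouse, cross the cell membrane and bind the glucocorticoid receptor, which then leaves a complex of HSP90 chaperones, enters the nucleus and binds palindromic DNA elements near its target genes. In nervous tissue the hormone acts on neurons, astrocytes, oligodendrocytes and vessels, and a common group of targets feeds back on the receptor, restrains inflammatory and growth factor signalling and adjusts metabolism. The 10 genes described here, Sgk1, Fkbp5, Tsc22d3, Errfi1, Nfkbia, Ddit4, Fam107a, Hif3a, Galnt15 and Zbtb16, are known responders of this kind. They were taken by symbol from the 55487 Ensembl genes of the deposited table. The group was selected on the FPKM of S87L against wild-type spinal cord, where several of the 10 were already known to be higher, so the spinal cord difference of all 10 is given as a description, without a test.

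RNA was sequenced from spinal cord of Morc2a p.S87L heterozygotes (3 libraries) and of wild-type mice (3 libraries), and from fetal fibroblasts (MEF) of S87L heterozygotes (2 libraries) and of wild-type mice (3 libraries), all C57BL/6. Morc2a encodes a nuclear ATPase of the MORC family that helps the HUSH complex to silence chromatin, and human MORC2 variants are a cause of axonal neuropathy. The sources used here give no age, sex, time of day or handling of the mice. They also do not say that replicates are different mice or cultures, so the p-values cover the variation among these libraries and no more.

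Values are FPKM, fragments per kilobase of gene scaled to the size of the library, which can be compared between genes. A gene was called when its limma p, adjusted by the Benjamini-Hochberg method across the genes of that comparison, was under 0.05. The reads behind the values came to 19.4 to 23.53 M in S87L and 15.35 to 18.97 M in wild-type cord libraries, and 12.08 to 14.47 M in S87L and 14.29 to 15.05 M in wild-type MEF libraries. Neuronal markers summed to 1310 to 1330 FPKM in S87L and 1330 to 1350 FPKM in wild-type cord, and to at most 0.759 FPKM in S87L and 0.668 FPKM in wild-type MEF. Fibroblast and meningeal markers summed to 3300 to 3570 FPKM in S87L and 3810 to 3830 FPKM in wild-type MEF. Each tissue thus carried the markers of its label, but the fibroblast sum was lower in S87L MEF without overlap. Of the 9 fibroblast and meningeal markers tested in MEF, 4 fell in S87L by the limma threshold and 0 rose. All genes tested in MEF summed to 286000 to 300000 FPKM in S87L and 285000 to 291000 FPKM in wild-type MEF. MEF also carried microglial markers, at 157 to 165 FPKM in S87L and 187 to 189 FPKM in wild-type MEF. Of these 8 markers, 0 were called higher and 2 lower in S87L MEF, where 4.91% of all genes tested were called higher and 6.32% lower. Over all 15648 genes tested in cord, 5.17% were called higher in S87L and 7.71% lower. In cord, all 10 skeletal muscle markers were called higher in S87L, with a summed level of 80.5 to 87.1 FPKM in S87L, against 17.7 to 22.8 FPKM in wild-type cord. Meningeal and fibroblast markers were called higher for 7 of 9 tested genes (47.8 to 50.1 FPKM in S87L, against 23.9 to 26.4 FPKM in wild-type cord), red blood cell markers for 3 of 5 (409 to 447 FPKM in S87L, against 336 to 371 FPKM in wild-type cord) and microglial markers for 4 of 8 (256 to 263 FPKM in S87L, against 219 to 228 FPKM in wild-type cord). The part of these cells in the differences between genotypes was not tested. In whole tissue, more cells of a type and more RNA per cell cannot be told apart.

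All 10 genes were higher in S87L than in wild-type cord, by 1.28-fold to 2.35-fold in mean FPKM, and at each of them the lowest S87L library lay above the highest wild-type library. Over all 15648 genes tested in cord, 13.8% lay above wild-type without overlap. Nothing is read from the count of 10, because the genes were chosen by the same contrast, and no test is given for them. The median difference of the 10 was 0.69 on the log2(FPKM + 0.5) scale, against -0.02 for all genes tested.

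**Figure D1:**
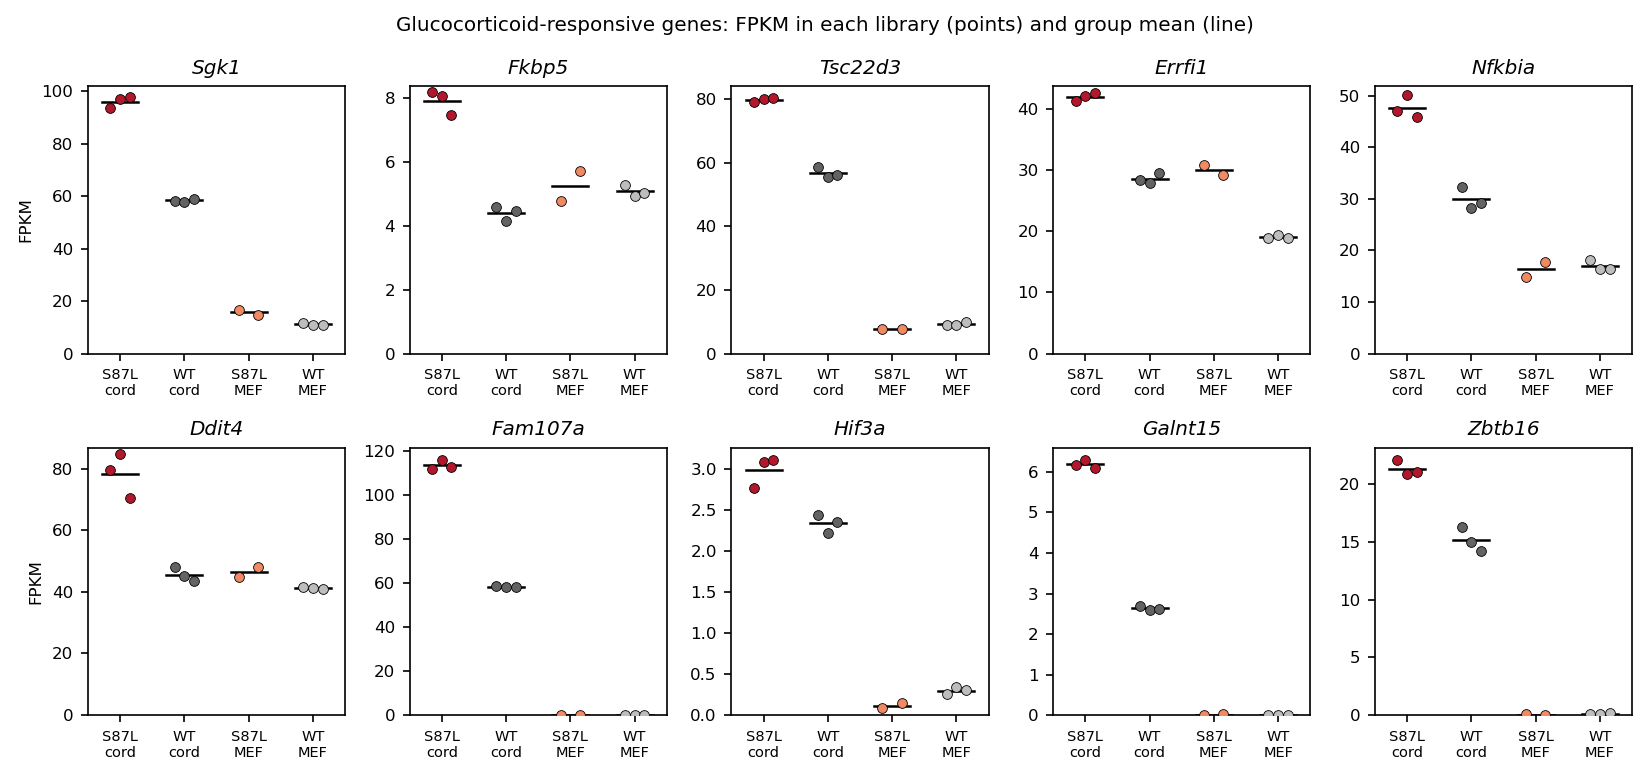
FPKM (y axes, linear, from 0) of the 10 glucocorticoid-responsive genes in each of the 11 libraries, by genotype and tissue (x axes); points are libraries and lines are group means. In every panel the 3 S87L cord libraries lie above the 3 wild-type cord libraries, and Fam107a, Galnt15 and Zbtb16 lie at or near 0 in all 5 MEF libraries.

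The receptor's own feedback was represented by Fkbp5, a co-chaperone that binds the HSP90 complex and lowers the affinity of the receptor for hormone. Fkbp5 (ENSMUSG00000024222, chromosome 17, 28399094 to 28517527, minus strand, GRCm38) had 8.19, 8.08 and 7.48 FPKM in S87L cord, against 4.6, 4.15 and 4.46 FPKM in wild-type cord. The S87L libraries were all above the wild-type ones, a 1.80-fold difference in means (7.92 ± 0.379 and 4.40 ± 0.232 FPKM, SD, n = 3 each).

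Sgk1, the serum and glucocorticoid regulated kinase, acts on ion channels and transporters and is induced directly by the receptor. Its promoter is shown because it held the complete receptor palindrome. Among the start sites that RefSeq gives for the gene, the window chr10:21993640-21993939 (GRCm38.p6, plus strand, 250 bases before to 50 after the start) read as follows, with the receptor hexamer AGAACA, its reverse complement TGTTCT, and the bases between a facing pair in capitals.
Sgk1: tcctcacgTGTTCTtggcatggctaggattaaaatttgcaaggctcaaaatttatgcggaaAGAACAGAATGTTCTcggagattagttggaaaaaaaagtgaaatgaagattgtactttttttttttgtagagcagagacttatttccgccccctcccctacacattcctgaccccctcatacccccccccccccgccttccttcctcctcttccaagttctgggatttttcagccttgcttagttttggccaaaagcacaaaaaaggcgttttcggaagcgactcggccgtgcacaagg
The complete palindrome in it, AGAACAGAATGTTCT, began 189 bases before the start. The gene (ENSMUSG00000019970, chromosome 10, 21882184 to 21999903, plus strand) had 93.5, 97.0 and 97.6 FPKM in S87L cord, against 58.3, 57.9 and 58.8 FPKM in wild-type cord. The 3 libraries of each genotype lay close together, and the means differed 1.65-fold (96.0 ± 2.24 and 58.3 ± 0.441 FPKM, SD, n = 3 each).

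Fam107a, an actin-associated protein that stress and glucocorticoids induce in brain, was the most abundant of the 10 in S87L cord. The window at 1 of its starts, chr14:8309730-8310029 (GRCm38.p6, minus strand), is shown because it held the shorter core GNACANNNTGTNC, in which each N is any base. Capitals mark a hexamer and, further on, the core GGACATGGTGTTC with the final T of the hexamer that overlaps it.
Fam107a: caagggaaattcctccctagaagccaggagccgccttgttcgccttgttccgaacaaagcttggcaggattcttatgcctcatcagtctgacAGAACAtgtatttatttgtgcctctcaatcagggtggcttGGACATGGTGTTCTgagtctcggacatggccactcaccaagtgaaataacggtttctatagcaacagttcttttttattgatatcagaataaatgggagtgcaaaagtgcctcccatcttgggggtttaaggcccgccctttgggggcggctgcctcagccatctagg
Fam107a (ENSMUSG00000021750, chromosome 14, 8296274 to 8318023, minus strand) had 112, 116 and 113 FPKM in S87L cord, against 58.9, 58.2 and 58.4 FPKM in wild-type cord. The genotypes were separated by a wide gap, with means 1.94-fold apart (114 ± 1.98 and 58.5 ± 0.380 FPKM, SD, n = 3 each).

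RefSeq promoter windows were found for 9 of the 10 genes (19 windows), and Zbtb16 had none in the table used. The complete palindrome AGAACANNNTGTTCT, looked for on both strands, occurred in 3 of the 32851 mouse windows searched (0.00913%), and the Sgk1 window was 1 of the 3. The windows of 1 chromosome were not searched. The core GNACANNNTGTNC, which every complete palindrome also holds, occurred in windows of 2 of the 9 genes, Sgk1 and Fam107a, against 0.537% of all 27025 genes with a window searched. The hexamer AGAACA on either strand, which also lies within each complete palindrome, occurred in windows of 3 of the 9 genes, the third being Tsc22d3, against 21.3% of all genes. The 9 genes had more windows per gene than all genes, which gives more room for a match. By window, the hexamer share was 31.6% for the 9 genes, against 19.0% of all windows. The Fkbp5, Errfi1, Nfkbia, Ddit4, Hif3a and Galnt15 windows held none of these letters, which says nothing of elements elsewhere. Of the 22 other glucocorticoid-responsive genes with a window, Map3k6 (GCACAGGCTGTTC, chromosome 4, 181 bases before the start) and Mt1 (GGACATGATGTTC, chromosome 8, 94 bases before the start) held the core. The hexamer occurred in windows of 2 of these 22 genes (9.09%), a lower share than the 21.3% of all genes. Of 9 genes of receptor function and hormone handling with a window searched, 4 held the hexamer (44.4%) and 0 the core. These matches describe letters in a window and do not show binding, and 2 of the 3 member windows with the core were Fam107a windows that overlap almost entirely.

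The inhibitors of inflammatory and growth signalling moved in the same direction. Tsc22d3, also called GILZ, a leucine zipper protein that restrains NF-kB and AP-1 (ENSMUSG00000031431, chromosome X, 140539528 to 140600659), had 79.1, 80.1 and 80.6 FPKM in S87L cord, against 58.7, 55.5 and 56.3 FPKM in wild-type cord. The means were 1.41-fold apart and the libraries of each genotype lay close together (79.9 ± 0.733 and 56.8 ± 1.70 FPKM, SD, n = 3 each). Nfkbia, which holds NF-kB in the cytoplasm (ENSMUSG00000021025, chromosome 12, 55489410 to 55492647), had 47.1, 50.1 and 45.8 FPKM in S87L cord, against 32.3, 28.3 and 29.1 FPKM in wild-type cord, with means 1.59-fold apart. Its libraries were more spread than those of Tsc22d3 (47.7 ± 2.2 and 29.9 ± 2.1 FPKM, SD, n = 3 each) and still did not overlap.

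Errfi1, a feedback inhibitor of the EGF receptor (ENSMUSG00000028967, chromosome 4, 150853919 to 150868892), had 41.2, 42.0 and 42.5 FPKM in S87L cord, against 28.3, 27.8 and 29.4 FPKM in wild-type cord. The means, 41.9 ± 0.677 and 28.5 ± 0.800 FPKM, were 1.47-fold apart. Ddit4, also called REDD1, an inhibitor of mTORC1 that hypoxia and DNA damage induce as well (ENSMUSG00000020108, chromosome 10, 59949669 to 59951834), had 79.6, 84.7 and 70.6 FPKM in S87L cord, against 48.1, 45.3 and 43.5 FPKM in wild-type cord. Its mean was 1.71-fold higher (78.3 ± 7.14 and 45.7 ± 2.33 FPKM), and its S87L libraries were the most spread of the 10 genes on the FPKM scale.

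Of the transcription factors, Zbtb16, also called PLZF, a zinc finger repressor (ENSMUSG00000066687, chromosome 9, 48654297 to 48836222), had 22.1, 20.9 and 21.1 FPKM in S87L cord, against 14.2 to 16.3 FPKM in the 3 wild-type libraries (21.4 ± 0.611 and 15.2 ± 1.04 FPKM, SD, n = 3 each, 1.41-fold). The genotypes were clearly apart. Hif3a, a member of the hypoxia-inducible factor family (ENSMUSG00000004328, chromosome 7, 17031507 to 17062427), showed the smallest difference of the 10. It had 2.77, 3.08 and 3.11 FPKM in S87L cord, against 2.44, 2.22 and 2.35 FPKM in wild-type cord, or 2.99 ± 0.189 and 2.34 ± 0.115 FPKM (1.28-fold), with only a narrow gap between the genotypes. Galnt15, a member of the enzyme family that starts O-linked glycosylation (ENSMUSG00000021903, chromosome 14, 32028989 to 32062197), showed the largest. It had 6.17, 6.29 and 6.10 FPKM in S87L cord, against 2.69, 2.59 and 2.61 FPKM in wild-type cord (2.35-fold, 6.19 ± 0.0950 and 2.63 ± 0.0533 FPKM, SD, n = 3 each).

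On the log2(FPKM + 0.5) scale, the 10 differences, S87L minus wild-type, with the SE as a measure of spread only, were 1.10 for Galnt15 (SE 0.05), 0.95 for Fam107a (SE 0.03), 0.78 for Fkbp5 (SE 0.06), 0.77 for Ddit4 (SE 0.07), 0.71 for Sgk1 (SE 0.03), 0.66 for Nfkbia (SE 0.06), 0.55 for Errfi1 (SE 0.04), 0.49 for Tsc22d3 (SE 0.03), 0.48 for Zbtb16 (SE 0.06) and 0.30 for Hif3a (SE 0.07). By size of log2 difference, largest first, among the 15648 genes tested, Galnt15 stood at place 33 and Hif3a at place 659. The 3 S87L libraries were alike in this. Against the wild-type mean, the median of the 10 genes was 0.66 in replicate 1, 0.73 in replicate 2 and 0.62 in replicate 3. No S87L cord library was the highest of its group for more than 4 of the 10 genes. Among the wild-type cord libraries replicate 1 was the highest for 8 genes and replicate 2 the lowest for 8, with medians of 0.05 and -0.03 from the wild-type mean.

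The fibroblasts, whose libraries played no part in choosing the genes, were tested with limma on log2(FPKM + 0.5) over 13773 genes. The genes did not all move in 1 direction there. Of the 6 genes that passed the filter of a mean FPKM of at least 0.5, Errfi1 and Sgk1 rose, Tsc22d3 fell, and Fkbp5, Nfkbia and Ddit4 were not called. Over all genes tested in MEF, 4.91% were called higher and 6.32% lower. The summed fibroblast and microglial markers were lower in S87L MEF, as given above. Their part in the MEF differences was not tested.

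Errfi1 had 30.8 and 29.2 FPKM in S87L MEF, against 18.9, 19.4 and 18.9 FPKM in wild-type MEF, a 1.57-fold rise (log2 difference 0.64, SE 0.04, limma adjusted p = 9.86e-04). Sgk1 had 16.5 and 14.8 FPKM in S87L MEF, against 11.8, 10.8 and 10.9 FPKM in wild-type MEF (1.40-fold, log2 difference 0.46, SE 0.07, limma adjusted p = 0.00997). Both genes were above all wild-type libraries in both S87L libraries, a position that 20.8% of all genes tested in MEF shared.

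Tsc22d3 fell in MEF. It had 7.78 and 7.72 FPKM in S87L MEF, against 9.04, 9.13 and 9.96 FPKM in wild-type MEF (log2 difference -0.26, SE 0.06, limma adjusted p = 0.0387). Both S87L libraries were below all wild-type ones, as were those of 25% of all genes tested in MEF. The call was near the threshold and was lost with any 1 of the 5 libraries left out, with an adjusted p of 0.0840 to 0.105.

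Fkbp5 had 4.78 and 5.73 FPKM in S87L MEF, against 5.29, 4.94 and 5.03 FPKM in wild-type MEF, and the S87L libraries lay on either side of the wild-type ones (log2 difference 0.04, SE 0.08, limma adjusted p = 0.803). Nfkbia likewise overlapped, with 14.9 and 17.7 FPKM in S87L MEF, against 18.2, 16.3 and 16.3 FPKM in wild-type MEF (-0.06, SE 0.08, limma adjusted p = 0.713). Ddit4 had 44.7 and 48.2 FPKM in S87L MEF, against 41.7, 41.2 and 40.8 FPKM in wild-type MEF. Both S87L libraries were higher, but the difference of 0.17 (SE 0.05) did not pass (limma adjusted p = 0.0620), and it passed without S87L replicate 1 (0.0346). Whether the genotype difference itself differed between cord and MEF was not tested, since the cord side of it had served to choose genes.

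**Figure D2:**
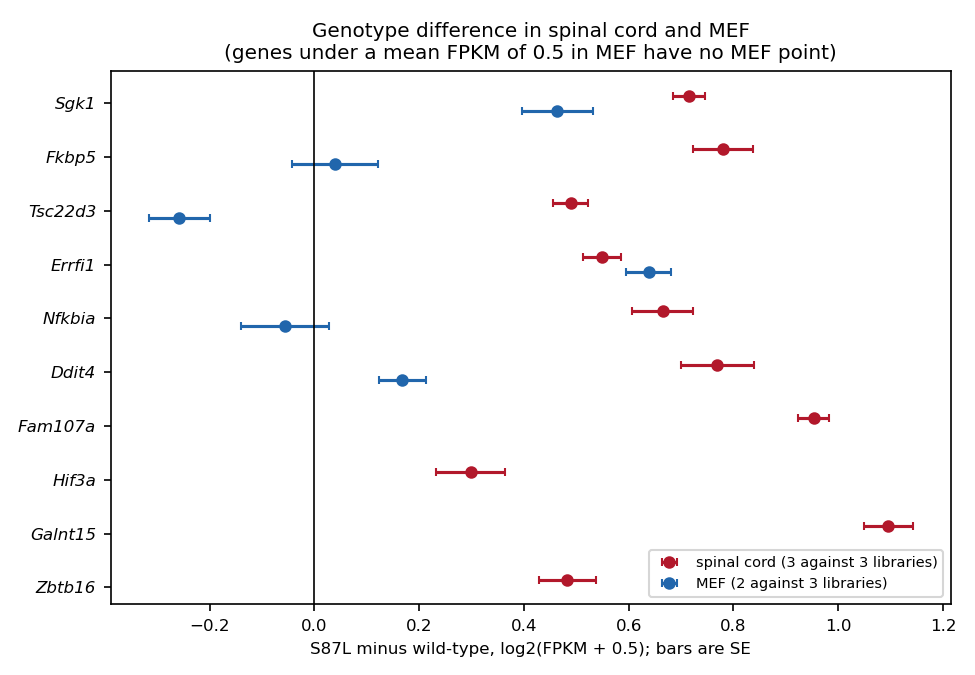
Difference between S87L and wild-type on the log2(FPKM + 0.5) scale (x axis) for each of the 10 genes (y axis), in spinal cord (red) and MEF (blue); bars are the limma SE. Sgk1 and Errfi1 lie right of 0 in both tissues, Tsc22d3 lies at 0.49 in cord and at -0.26 in MEF, and the 4 genes under the filter have no MEF point.

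The remaining 4 genes were below the filter in MEF and were not tested there. Fam107a had 0 and 1 recovered reads in S87L MEF, against 2, 2 and 1 in wild-type MEF, and Galnt15 had 0 and 1 reads in S87L MEF, against 1, 1 and 0 in wild-type MEF. Zbtb16 had 4 and 2 reads in S87L MEF, against 7, 8 and 13 in wild-type MEF, and Hif3a had 8 and 11 reads in S87L MEF, against 23, 31 and 29 in wild-type MEF. No comparison of genotypes is made at such counts.

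Between wild-type libraries, the 6 genes that passed the filter in MEF could be compared between tissues. Of these, 5 were called higher in cord than in MEF and Fkbp5 was called lower, where 47.4% of the 15962 genes tested were called higher and 40.3% lower. Fam107a, Zbtb16, Galnt15 and Hif3a averaged 58.5, 15.2, 2.63 and 2.34 FPKM in cord, against 0.0312, 0.126, 0.00772 and 0.297 FPKM in MEF. They passed the filter of this comparison only through cord, so no call is given for them. The median log2 difference of all genes was 0.12, and -0.15 with quantile normalization. Sgk1 and Tsc22d3 stood 2.33 (SE 0.04, limma adjusted p = 1.32e-09) and 2.54 (SE 0.05, adjusted p = 1.51e-09) higher in cord, at means of 58.3 and 56.8 FPKM in cord, against 11.2 and 9.37 FPKM in MEF. Errfi1 and Nfkbia differed less (1.49-fold and 1.77-fold), and Ddit4, at 45.7 ± 2.33 FPKM in cord and 41.2 ± 0.435 FPKM in MEF (SD, n = 3 each), differed by 0.14, close to the median of all genes, but by 0.11 with quantile normalization, where that median was -0.15. Fkbp5 was at 4.40 ± 0.232 FPKM in cord and 5.09 ± 0.180 FPKM in MEF (log2 difference -0.19, SE 0.05, limma adjusted p = 0.0117, and -0.41 with quantile normalization). The wild-type cord libraries also served in the contrast by which genes were chosen.

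In wild-type cord, Sgk1, Fam107a and Tsc22d3 were the most abundant of the 10, at 57.9 to 58.8 FPKM, 58.2 to 58.9 FPKM and 55.5 to 58.7 FPKM, and these 3 ranges overlapped. Ddit4 came next, then Nfkbia and Errfi1, whose ranges overlapped (28.3 to 32.3 and 27.8 to 29.4 FPKM), then Zbtb16, Fkbp5, Galnt15 and Hif3a. In S87L cord Fam107a stood alone at the top at 112 to 116 FPKM, above Sgk1 at 93.5 to 97.6 FPKM. Tsc22d3 and Ddit4 followed with overlapping ranges (79.1 to 80.6 and 70.6 to 84.7 FPKM).

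A further list of 27 glucocorticoid-responsive genes, drawn up from general knowledge of the hormone's targets, was higher in cord as well. Of the 27, 17 were called higher and 0 lower, with a median log2 difference of 0.43, against a median of -0.02, 5.17% called higher and 7.71% called lower for all genes tested. Cdkn1a and Gjb6 were known beforehand to be higher, and without them 15 of 25 were called higher (median 0.42). The list was drawn up with earlier results of these data known, so the 25 cannot be taken as independent of the cord contrast. In the same libraries the summed skeletal muscle, meningeal, red blood cell and microglial markers were higher, as given above. Their part in the rise of the list was not tested.

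Plin4, a lipid droplet coat protein, had 13.3, 13.5 and 12.7 FPKM in S87L cord, against 6.06, 6.47 and 6.51 FPKM in wild-type cord (2.08-fold, log2 difference 0.999, SE 0.05, limma adjusted p = 6.60e-05). Pdk4, the kinase that turns off pyruvate dehydrogenase during fasting, had 13.0, 13.4 and 13.8 FPKM in S87L cord, against 7.55, 7.51 and 7.62 FPKM in wild-type cord (1.77-fold, 0.79, SE 0.04, limma adjusted p = 8.71e-05). Klf9, a transcription factor that the receptor induces in neurons, had 55.6, 54.8 and 53.7 FPKM in S87L cord, against 40.2, 40.3 and 40.1 FPKM in wild-type cord (1.36-fold, 0.44, SE 0.03, limma adjusted p = 4.03e-04). These 3 genes were separated between the genotypes by many times the spread of their libraries.

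Sult1a1, a sulfotransferase, rose by 0.64 (SE 0.05, limma adjusted p = 6.09e-04). The astrocyte connexin Gjb6 rose by 0.43 (SE 0.04) and Cdkn1a, the cell cycle inhibitor that p53 also induces, by 0.95 (SE 0.05). No p is given for Gjb6 and Cdkn1a, which were known beforehand to be higher. The 11 other called genes were Angptl4, Arl4d, Arrdc2, Cebpd, Klf15, Map3k6, Mertk, Gpd1, Dusp1, Bcl6 and Glul, with mean FPKM 1.14-fold higher for Glul, the glutamine synthetase of astrocytes, to 2.96-fold higher for Angptl4, an inhibitor of lipoprotein lipase. Without S87L replicate 1 or without S87L replicate 2, the calls of Dusp1, Cebpd, Map3k6 and Bcl6 were lost. Those of Dusp1, Cebpd and Bcl6 were also lost without wild-type replicate 2, those of Dusp1 and Cebpd without replicate 3 and that of Dusp1 without replicate 1, and over all alternatives run their limma adjusted p was at most 0.0942.

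Not every known target was called. The clock and glucocorticoid gene Per1 differed by 0.18 (SE 0.07) and the metallothioneins Mt1 and Mt2, classical hormone targets that metals also induce, by -0.18 (SE 0.07) and 0.17 (SE 0.05), with limma adjusted p of 0.143, 0.118 and 0.0529. The 7 other uncalled genes lay between -0.13 for Anxa1 and 0.42 for Rasd1, both of which had overlapping genotypes. In MEF, 22 genes of the list were tested, 1 was called higher (Cdkn1a, 0.26) and 1 lower (Nedd9, -0.32), and the median was 0.03. These shares are close to the 4.91% higher and 6.32% lower of all genes tested. Both MEF calls were lost without any 1 of the wild-type replicates, up to an adjusted p of 0.0810 for Cdkn1a and 0.0650 for Nedd9.

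Upstream of these targets, the receptors themselves were not called different in cord. Nr3c1, the glucocorticoid receptor, had 15.7, 15.6 and 16.1 FPKM in S87L cord, against 14.1, 15.3 and 15.3 FPKM in wild-type cord (log2 difference 0.08, SE 0.05, limma adjusted p = 0.258), so that the S87L libraries lay slightly above without passing the test. Nr3c2, the mineralocorticoid receptor, which binds corticosterone with higher affinity, had 7.38, 7.22 and 7.67 FPKM in S87L cord, against 7.38, 8.11 and 8.04 FPKM in wild-type cord (-0.07, SE 0.05, limma adjusted p = 0.391). Hsd11b1, which regenerates active corticosterone within cells, had 6.81, 6.85 and 7.33 FPKM in S87L cord, against 6.53, 7.04 and 6.83 FPKM in wild-type cord (0.04, SE 0.05, limma adjusted p = 0.668). The corticosteroid-binding globulin gene Serpina6 was listed at 0 in all 6 cord libraries, and Hsd11b2, which inactivates the hormone, was below the filter.

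The chaperones that hold the receptor ready for hormone rose slightly. Of 14 tested genes of receptor function and hormone handling, 6 were called higher and 0 lower, against 5.17% and 7.71% of all genes tested, and the log2 differences of the 6 were 0.17 to 0.27. Heat shock genes were among the results of these data known when the list was drawn up. The calls therefore cannot be taken as independent of the cord contrast. All called genes but Abcb1a are HSP90 genes or HSP90 co-chaperones. Stip1, the co-chaperone that joins HSP70 to HSP90, had 158, 162 and 158 FPKM in S87L cord, against 136, 132 and 133 FPKM in wild-type cord (1.19-fold, limma adjusted p = 0.00262). The HSP90 genes Hsp90aa1 and Hsp90ab1 rose 1.15-fold and 1.12-fold, the HSP90 co-chaperone Ptges3 1.17-fold and Fkbp4, the co-chaperone that favours receptor entry to the nucleus, 1.15-fold. Abcb1a, the vessel wall transporter that pumps steroids out of nervous tissue, rose 1.22-fold (10.9, 11.4 and 11.4 FPKM in S87L cord, against 9.05, 9.19 and 9.48 FPKM in wild-type cord, limma adjusted p = 0.00845). Without S87L replicate 1, S87L replicate 2 or wild-type replicate 3, the calls of Fkbp4 and Ptges3 were lost, and that of Fkbp4 was also lost without wild-type replicate 2 (limma adjusted p up to 0.0845 for Fkbp4 and 0.0584 for Ptges3). The coactivators Ncoa1 and Ncoa2 and the corepressor Ncor1 were not called, at -0.045 to -0.025, nor was H6pd, which supplies Hsd11b1 with cofactor, at 0.16 (limma adjusted p = 0.152). In MEF, 1 of 11 tested genes was called, against 4.91% of all genes called higher there. It was Hsp90aa1, higher by 0.28 (limma adjusted p = 0.0118), a call lost without wild-type replicate 1 (0.0549) or 2 (0.0677).

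**Figure D3:**
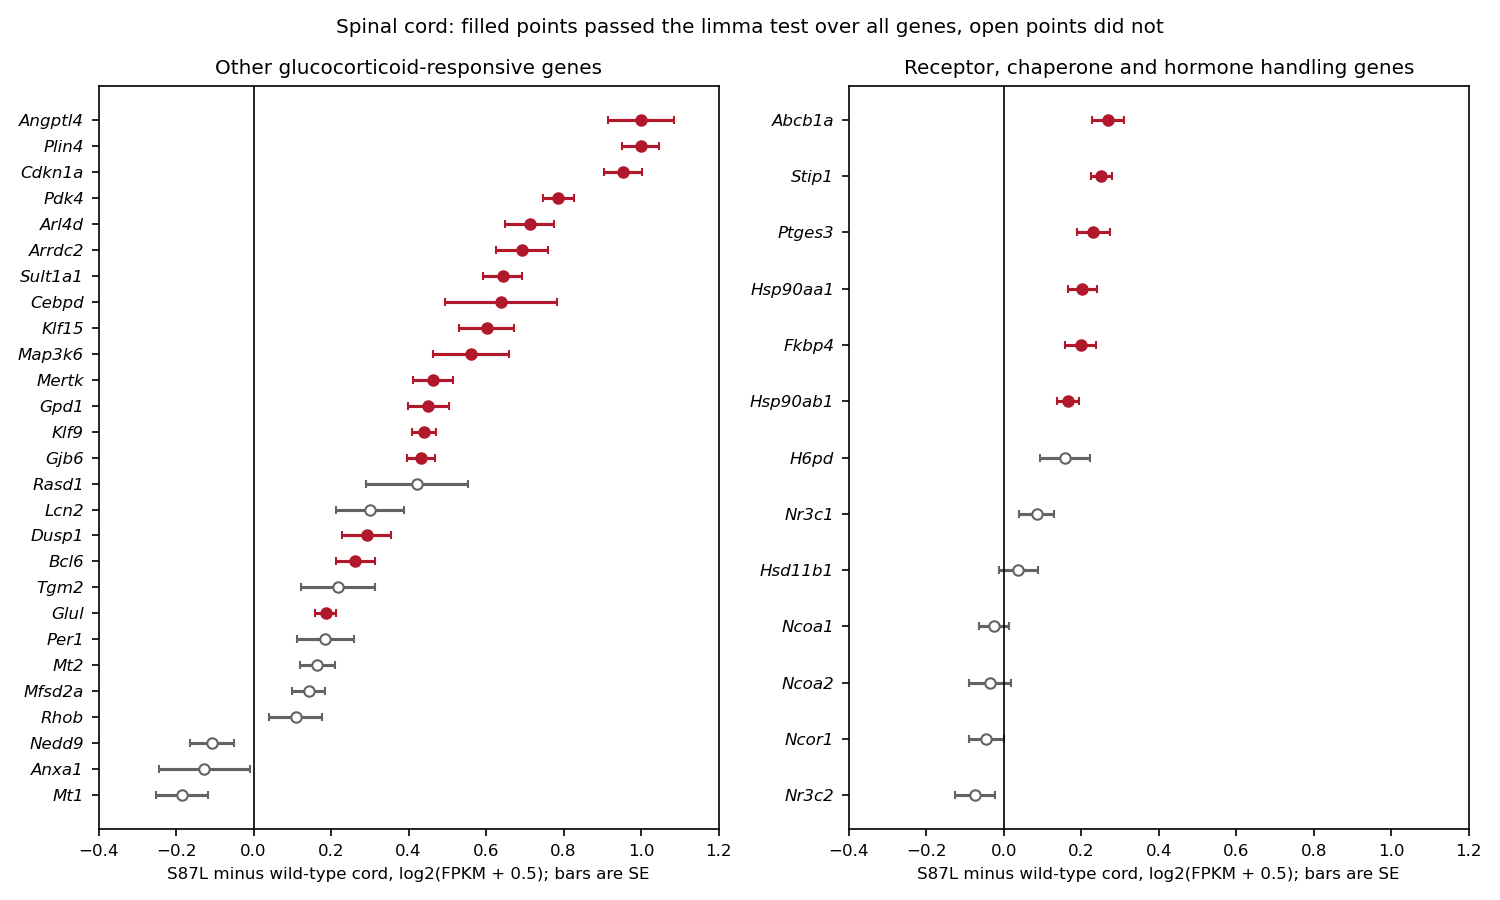
Difference between S87L and wild-type cord on the log2(FPKM + 0.5) scale (x axes) for the 27 other glucocorticoid-responsive genes (left) and the tested genes of receptor function and hormone handling (right, 1 of the 14 not drawn); bars are the limma SE and filled points passed the test over all genes. In the left panel 17 points are filled, all right of 0, and in the right panel 6 are filled, with values of 0.17 to 0.27.

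Several members answer to other stimuli, and lists for these were set beside them, again against 5.17% of all genes called higher and 7.71% lower. Of 8 tested immediate early genes, which neuronal activity and handling of tissue induce, 0 were called higher and 1 lower in S87L cord (Fos, -0.29), with a median of 0.04. Of 11 tested hypoxia targets 3 were called higher and 3 lower, with a median of -0.05. Vegfa was among the lower ones at -0.48. In the other direction, P4ha1 had 23.4, 22.4 and 23.4 FPKM in S87L cord, against 17.8, 17.8 and 17.3 FPKM in wild-type cord. Of 14 clock genes 3 were called higher and 1 lower, with a median of 0.10. The summed level of the clock genes was 174 to 181 FPKM in S87L cord, against 162 to 167 FPKM in wild-type cord.

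Markers of the cells of the cord itself were also followed, beside the same 5.17% of all genes called higher and 7.71% lower. Of 9 astrocyte markers 1 was called higher and 1 lower, with a median of 0.00 and a summed level of 1820 to 1870 FPKM in S87L cord, against 1820 to 1840 FPKM in wild-type cord. The 9 oligodendrocyte markers had a median of -0.08, with 1 called in each direction, and their summed level was lower without overlap, at 3660 to 3810 FPKM in S87L cord, against 3860 to 3930 FPKM in wild-type cord. The summed level of all genes tested was also lower, at 292000 to 295000 FPKM in S87L and 306000 to 309000 FPKM in wild-type cord. The 8 endothelial markers had a median of 0.02, with 1 called in each direction, and their summed levels overlapped between the genotypes, the 3 S87L libraries lying within the wild-type range of 71.7 to 75.9 FPKM. The 6 neuronal markers had a median of -0.03, with 0 called higher and 1 lower. The part of these cells in the differences of the 10 genes was not tested.

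**Figure D4:**
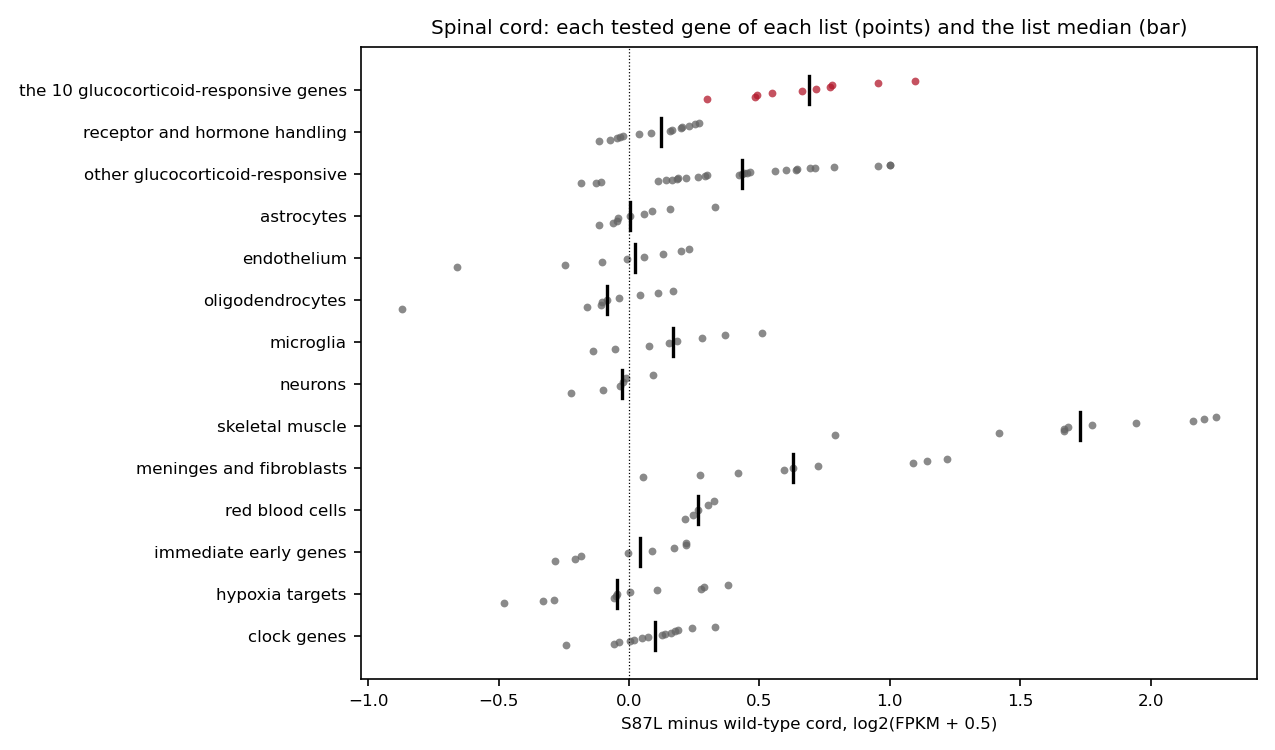
Difference between S87L and wild-type cord on the log2(FPKM + 0.5) scale (x axis) for each tested gene (points) of the 14 lists (y axis), with the list median as a bar. The medians are 0.69 for the 10 glucocorticoid-responsive genes, 0.43 for the other responsive genes, 1.73 for skeletal muscle and 0.63 for meninges and fibroblasts, and those of astrocytes, endothelium, oligodendrocytes and neurons lie between -0.08 and 0.02.

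Over all 11 libraries, the genes outside the 10 whose differences from the wild-type mean of their tissue were most like those of Fkbp5, by the root mean square difference in log2(FPKM + 0.5) among 10732 genes with a mean of at least 1 FPKM in both tissues, were Ccn2 (0.068), Sdf2l1 (0.072), Tagln (0.086), Smim3 (0.098) and H19 (0.103). Ccn2, a matrix-associated growth factor, averaged 8.99 ± 0.346 FPKM in S87L and 5.36 ± 0.352 FPKM in wild-type cord. Sdf2l1, an endoplasmic reticulum protein, averaged 28.9 ± 2.14 FPKM in S87L and 17.7 ± 0.254 FPKM in wild-type cord (SD, n = 3 each). Each of the 5 had a higher mean in S87L than in wild-type cord, as the measure of likeness requires. The measure takes no account of the level in each tissue. Ccn2, Tagln and H19 averaged 200, 549 and 1830 FPKM in wild-type MEF, against 5.36, 4.68 and 0.672 FPKM in wild-type cord. Sdf2l1 and Smim3 averaged 18.2 and 3.08 FPKM in wild-type MEF, against 17.7 and 2.45 FPKM in wild-type cord, and Fkbp5 5.09 against 4.40 FPKM.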

How the data were processed

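The 11 RNA libraries were analysed from the FPKM table that the authors deposited. The submitters' processing notes name GRCm38 and the programs HISAT2 (2.2.1), HTSeq (0.11.3), Trimmomatic (0.39) and Picard (2.25.5), and the labels' protocols name a directional library kit. The sources used here give neither the annotation release nor the strand setting, so overlapping and antisense genes may share reads. Symbols, coordinates and exon lengths came from GENCODE (55141 of 55487 rows had a symbol), promoter windows from RefSeq. FPKM multiplied by exon length fell within 0.05 of whole reads in 98.63% to 99.0% of values under 200 reads, which gave the depth. limma (3.58.1, trend and robust) was run per comparison on log2(FPKM + 0.5), which understates changes of low genes, for genes averaging 0.5 FPKM or more across its libraries. SE is the moderated standard error. The code was tested on simulated data.

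The 10 genes and all lists were chosen with earlier results of these data known. Named genes were the 10, the called receptor genes with Nr3c1, Nr3c2, Hsd11b1 and Fkbp4, up to 6 genes of the further list with the smallest p per direction in cord and in MEF, and the 5 most like Fkbp5. Other genes were named after their values were seen, and 1 gene of the receptor list is not reported here. Alternatives were other pseudocounts, filters, scalings and limma settings, a replicate block, and leaving out single libraries.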

Additional observations from a re-analysis of the deposited data

Results flagged for a closer look

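Tsc22d3 was flagged because its libraries lay on opposite sides of wild-type in the tissues: all 3 S87L cord libraries were above all wild-type cord libraries, and both S87L MEF libraries were below all wild-type MEF libraries, with a log2 difference of -0.26 in MEF. Taken singly, such positions are common, at 13.8% of all genes tested for the one in cord and 25% for the one in MEF. The share of genes that held both was not counted. The difference between tissues was not tested, and the MEF call was lost in 9 of 13 alternatives.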

How the results depend on the processing

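The cord differences of the 10 genes kept their sign in all alternatives run, with a median of 0.67 to 0.72 when 1 library was left out. Of the 17 further targets called in cord, 13 kept their call in every alternative (13 to 17 calls with 1 library left out), and of the 6 receptor and chaperone genes 4 did (4 to 6 calls). Calls over all genes, 2016 in cord and 1547 in MEF, were 838 to 1637 and 565 to 1753 with 1 library left out. MEF calls were 788 without a filter on low values. Same-numbered libraries did not deviate together (correlations of -0.051 to 0.149 in cord, -0.07 and -0.028 in MEF). With the replicate number as a block, MEF calls were 182, and 1 of the 10 genes (Errfi1) was called in MEF in place of 3, with Sgk1 at an adjusted p of 0.0578. The block also ended the MEF calls of Cdkn1a (0.167), Nedd9 (0.102) and Hsp90aa1 (0.104) and the cord call of Dusp1. limma without trend and robust ended the MEF calls of Tsc22d3 (0.0704) and Cdkn1a (0.0537) and the cord call of Fkbp4 (0.0508). With 1 library left out, members called in MEF numbered 2 to 3, Fkbp5 ranged from -0.08 to 0.16 and Nfkbia from -0.17 to 0.06, neither called; with 1 S87L MEF library left, it is assumed to vary like the others. Ddit4 was called in MEF with quantile normalization (adjusted p = 0.0415) and median ratio scaling (0.0414). The causes were not tested. At the depth of the MEF libraries, Fam107a, Galnt15, Zbtb16 and Hif3a could not be compared.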
